A study of Homo sapiens with 9 samples.

Results

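The 9 transcription factor genes described here, which specify or maintain squamous epithelium, were TP63, SOX2, KLF4, KLF5, GRHL2, GRHL3, TFAP2A, OVOL1 and PITX1. They were taken by gene name from a count table of 58929 genes, and all 9 were among the 16065 genes that passed the filter on low counts. Polyadenylated RNA was sequenced from FaDu, a hypopharyngeal line of head and neck squamous cell carcinoma (HNSCC) whose genotype is labelled wild type. The 3 groups, each of 3 separate cultures, were YKL-5-124 at 250 nM, samuraciclib at 250 nM and the vehicle DMSO. CDK7, the target of both compounds, phosphorylates cell cycle kinases and, within TFIIH, RNA polymerase II. YKL-5-124 binds CDK7 covalently, and samuraciclib is a reversible inhibitor that competes with ATP. Exposure is given as 48 h in the treatment protocol and the text of the study, and as 72 h in the design text of the series. All groups share the 1 cell line and 1 batch label, so the values describe FaDu cells only.

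Stratified squamous epithelium renews from a basal layer whose cells divide, stop dividing and then build the cornified or mucosal barrier. p63, the product of TP63, holds the basal state, Krüppel-like, grainyhead-like, AP-2 and OVO-like factors act with it on keratin, junction and barrier genes, and SOX2 and PITX1 are developmental factors that squamous carcinoma cells also express. The study profiled these cultures for transcripts that change when CDK7 is inhibited, and the same design allows the inhibitors to be set against each other.

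Libraries held 18264302 to 24613892 counts with YKL-5-124, 19346587 to 22111350 with samuraciclib and 18096180 to 28018126 in DMSO. CPM are counts scaled to library size multiplied by the TMM scaling factor of edgeR, not to library size alone. In 3 libraries, YKL-5-124 2, samuraciclib 2 and DMSO 3, the signal recognition particle RNA gene RN7SL2 stood at 24.9 to 59.3 CPM. It stood at 696 to 981 CPM in the other 6. CDK7 itself, whose protein and not whose transcript the compounds target, lay at 68.5 to 73.6 CPM with YKL-5-124. It lay at 74.7 to 81.9 CPM with samuraciclib and at 76.7 to 86.3 CPM in DMSO. All 10 squamous markers averaged above 1 CPM in every group. Their summed level was 6514 to 6876 CPM with YKL-5-124, 7215 to 7431 CPM with samuraciclib and 6490 to 6807 CPM in DMSO. KRT5 and KRT17 made up most of it, and KRT14, a defining basal keratin, stood at only 17.0 to 35.9 CPM. Of 10 fibroblast markers only COL1A1 exceeded 1 CPM, and the sum was 3.94 to 5.78 CPM with YKL-5-124, 4.87 to 6.17 CPM with samuraciclib and 3.80 to 5.43 CPM in DMSO. The 10 leukocyte markers summed to 4.57 to 5.59 CPM over all libraries. The 8 endothelial markers summed to 25.7 to 28.6 CPM with YKL-5-124, 20.4 to 24.0 CPM with samuraciclib and 31.3 to 32.8 CPM in DMSO, nearly all of it CDH5, with KDR and TEK at 0. The part of these marker differences in the results was not tested.

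Proximal promoters of 3 members are shown because SOX2 and KLF4 were the members that differed most between the compounds, and KLF5, the paralog of KLF4, was level in all 3 groups. Each is the 250 bases before a transcription start of RefSeq on GRCh38.p14, written 5′ to 3′ on the strand of the gene. Capitals mark CACCC, a motif bound by Krüppel-like factors, GGGCGG, the GC box, and GCCNNNGGC, the AP-2 motif, each on either strand. The CACCC and GC box letters may overlap in GC-rich sequence. SOX2 is at chr3:181711675-181711924, plus strand, KLF4 at chr9:107489770-107490019, minus strand, and KLF5 at chr13:73058755-73059004, plus strand.
SOX2: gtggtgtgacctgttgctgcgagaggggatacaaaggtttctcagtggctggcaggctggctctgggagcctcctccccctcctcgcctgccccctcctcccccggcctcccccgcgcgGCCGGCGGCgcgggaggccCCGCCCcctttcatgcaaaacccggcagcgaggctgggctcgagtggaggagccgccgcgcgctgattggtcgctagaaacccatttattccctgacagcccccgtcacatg
KLF4: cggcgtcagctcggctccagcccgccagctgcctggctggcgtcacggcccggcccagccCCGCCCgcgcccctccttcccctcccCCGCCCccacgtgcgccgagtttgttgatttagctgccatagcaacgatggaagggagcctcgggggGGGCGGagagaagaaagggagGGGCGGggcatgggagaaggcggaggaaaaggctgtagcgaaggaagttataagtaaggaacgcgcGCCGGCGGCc
KLF5: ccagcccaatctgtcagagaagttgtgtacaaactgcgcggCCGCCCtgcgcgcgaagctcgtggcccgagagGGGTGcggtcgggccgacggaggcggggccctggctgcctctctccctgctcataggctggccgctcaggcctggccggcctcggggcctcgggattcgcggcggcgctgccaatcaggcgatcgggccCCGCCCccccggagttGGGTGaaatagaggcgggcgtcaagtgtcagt
The KLF4 and KLF5 windows lie inside the spans of these genes, upstream of an internal start, and hold no annotated exon. The SOX2 window overlaps an exon of an unnamed gene. CACCC is found in 54.7% of 35116 promoter windows of this length, GGGCGG in 42.6% and GCCNNNGGC in 19.8%. The SOX2 window has 1 GC box, 1 AP-2 motif and no CACCC, the KLF4 window 4 GC boxes, 1 AP-2 motif and no CACCC, and the KLF5 window shown 2 GC boxes, 2 CACCC and no AP-2 motif. GC content was 68.8% for SOX2, 69.2% for KLF4 and 70.8% for KLF5, against a median of 58.0% over all windows. Another KLF5 window, before the start of the gene model in the table (chr13:73054726-73054975) and not shown, has 40.8% GC, 1 CACCC, no GC box and no AP-2 motif. The letters are a description of the windows and were not tested against the measurements.

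Levels can be compared between genes only per length, and are given here as CPM per kilobase of the gene length in the table. The members spanned more than 2 orders of magnitude. In DMSO KLF5 was the most abundant at 27.7 CPM per kilobase, followed by TP63 at 19.6, GRHL2 at 16.5 and PITX1 at 12.6. TFAP2A at 9.36 and KLF4 at 8.90 CPM per kilobase overlapped between libraries, so their order is not resolved. SOX2 at 3.43, OVOL1 at 1.24 and GRHL3 at 0.123 CPM per kilobase were the lowest. Among the 1110 transcription factor genes tested, KLF5 ranked 66th by level in DMSO, TP63 104th and GRHL2 125th, while GRHL3 ranked 1067th. With YKL-5-124 the ranges of GRHL2, at 22.7, and TP63, at 22.5 CPM per kilobase, overlapped, and KLF4 at 6.89 lay below TFAP2A at 10.1 without overlap. With samuraciclib TP63, at 23.8, stayed above GRHL2, at 21.2 CPM per kilobase, and TFAP2A and KLF4 overlapped. The summed level of the 9 genes was 573 to 590 CPM with YKL-5-124, 578 to 595 CPM with samuraciclib and 513 to 540 CPM in DMSO, and neither inhibitor group overlapped DMSO. This sum is not scaled by length, and its largest rises were those of TP63 and GRHL2. TP63 averaged 167 CPM with YKL-5-124, 177 with samuraciclib and 146 in DMSO, and GRHL2 137, 129 and 99.9 CPM. The means of SOX2 and KLF4 lay below DMSO with both compounds, those of KLF5 and GRHL3 with YKL-5-124, and that of TFAP2A with samuraciclib. In bulk RNA, fewer cells of a type and less RNA per cell cannot be told apart.

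**Figure D1:**
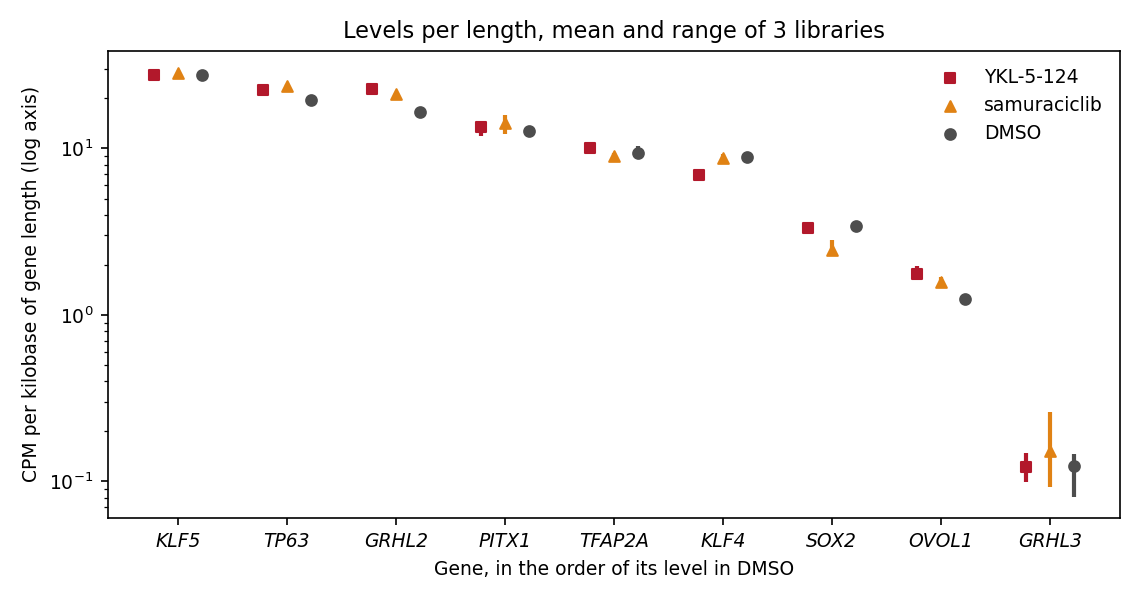
Level of each lineage factor in CPM per kilobase of gene length on a log axis, with the mean (symbol) and the range (line) of 3 libraries for YKL-5-124, samuraciclib and DMSO. KLF5, TP63 and GRHL2 lead in every group, and GRHL3 lies near 0.12 to 0.15.

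A gene was called where edgeR's quasi-likelihood test gave a Benjamini-Hochberg adjusted p below 0.05 over all genes tested and the log2 fold change exceeded 0.5 in either direction. Of the 9 members, 1 was called with YKL-5-124 against DMSO, where 21.8% of all genes and 17.4% of transcription factor genes were called. None was called with samuraciclib against DMSO, where the background was 17.7% of all genes and 14.4% of transcription factor genes, and none between YKL-5-124 and samuraciclib, where it was 6.92% and 4.14%. DESeq2 called none in any of the 3 comparisons. At an unadjusted p below 0.05, edgeR found 4 members with YKL-5-124 (55.5% of all genes), 4 with samuraciclib (51.4%) and 3 between the compounds (36.5%). With any fold change, 4 members passed the adjusted p with YKL-5-124 (background 49.3%), 4 with samuraciclib (44.1%) and 3 between the compounds (24.9%). Groups did not overlap for 4 members with YKL-5-124 (56.8% of all genes), for 4 with samuraciclib (52.9%) and for 5 between the compounds (38.7%). The median log2 fold change of the members was 0.08 with YKL-5-124 and 0.17 with samuraciclib, against 0.01 and 0.00 for all genes, and -0.04 between the compounds, against 0.01. The 95% intervals lay wholly inside the fold threshold for 5 members with YKL-5-124, for 6 with samuraciclib and for 7 between the compounds.

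**Figure D2:**
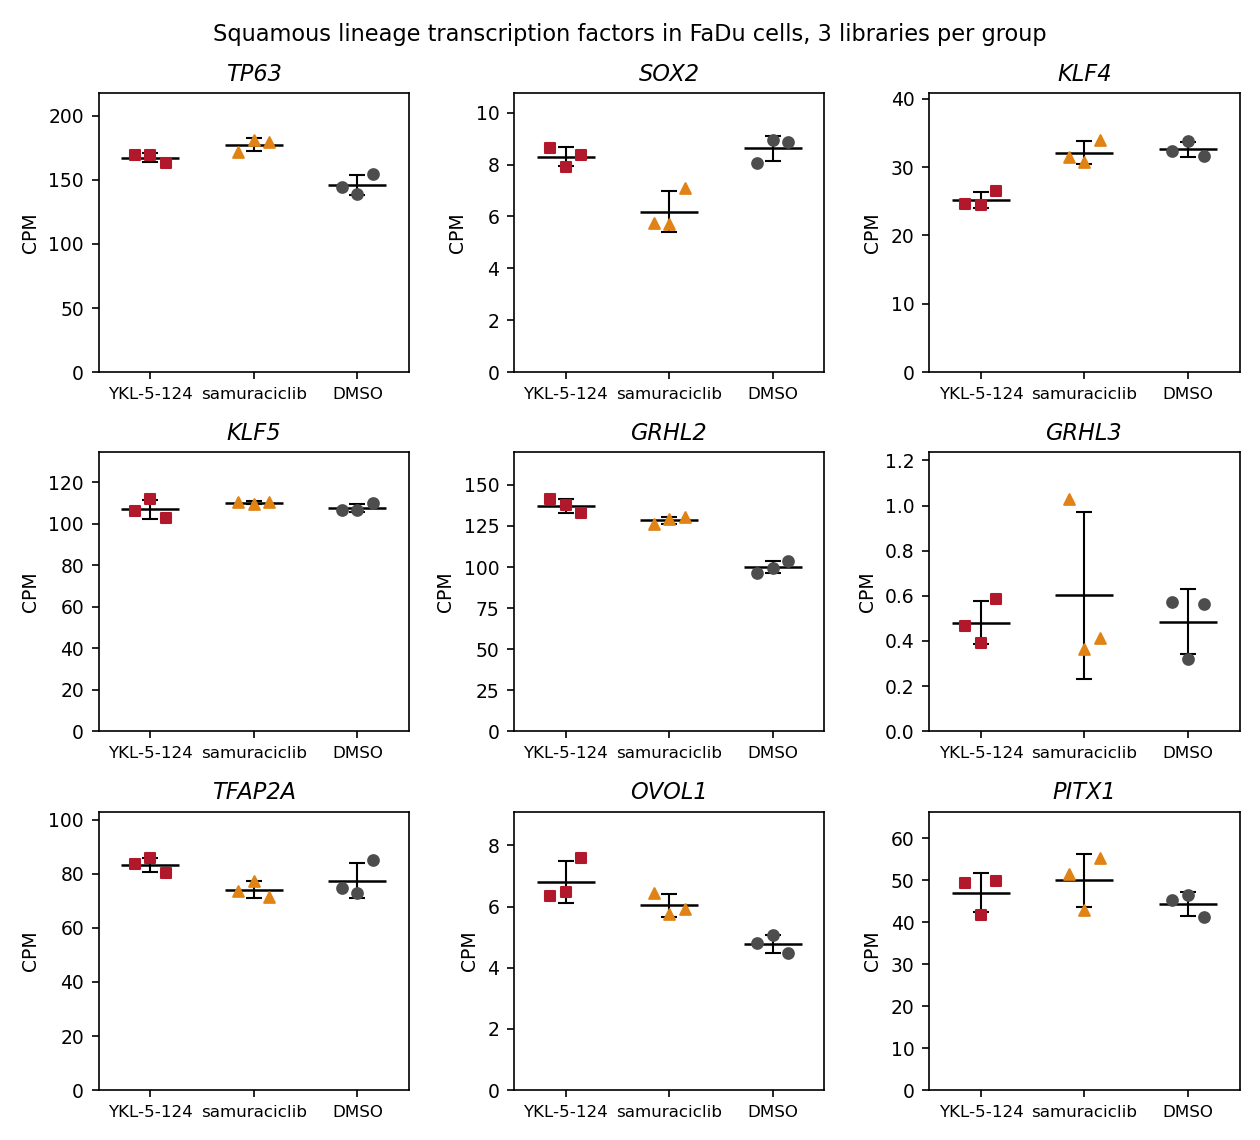
CPM of the 9 lineage factors in each of 3 libraries of YKL-5-124, samuraciclib and DMSO, with the mean and SD (horizontal line and bar). The inhibitor libraries of GRHL2 and TP63 all lie above DMSO, KLF4 is low with YKL-5-124, SOX2 is low with samuraciclib, and KLF5 is level.

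TP63 (ENSG00000073282, chromosome 3, 189631416 to 189897279, plus strand, GRCh38) encodes p63, the p53-family factor without which stratified epithelia do not form in mice. It stood at 169.6, 169.5 and 163 CPM with YKL-5-124, at 172, 181 and 179.6 CPM with samuraciclib, and at 144, 139 and 154 CPM in DMSO. All inhibitor libraries lay above all DMSO libraries, by 1.15-fold with YKL-5-124 and 1.22-fold with samuraciclib. The log2 fold change ± SE was 0.20 ± 0.047 with YKL-5-124 (adjusted p = 0.0019) and 0.28 ± 0.047 with samuraciclib (adjusted p = 8.4e-05), both under the fold threshold. For YKL-5-124 over samuraciclib it was -0.08 ± 0.047 (adjusted p = 0.204, 95% interval -0.18 to 0.01). The count is per gene and does not separate transcripts with the transactivating N-terminus from the shorter ΔN transcripts that basal keratinocytes mainly use. Models of MIR944 and a pseudogene lie within its introns, both with 0 counts.

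SOX2 (ENSG00000181449, chromosome 3, 181711924 to 181714436, plus strand), whose promoter is printed above, encodes an HMG-box factor of the foregut that is gained together with TP63 in many squamous carcinomas. It stood at 8.64, 7.91 and 8.37 CPM with YKL-5-124, at 5.76, 5.70 and 7.09 CPM with samuraciclib, and at 8.07, 8.95 and 8.85 CPM in DMSO. Only the samuraciclib libraries were low, and all 3 lay below every other library. They had 123 to 138 counts each, against 166 to 202 with YKL-5-124 and 141 to 235 in DMSO. The log2 fold change of samuraciclib against DMSO was -0.49 ± 0.12 (adjusted p = 0.0026), just inside the fold threshold, and that of YKL-5-124 against DMSO was -0.06 ± 0.11 (adjusted p = 0.697, interval -0.30 to 0.18). The compounds differed by 0.43 ± 0.12, YKL-5-124 over samuraciclib (adjusted p = 0.0134, interval 0.18 to 0.68). Without samuraciclib 3 SOX2 passed the call rule at -0.59 against DMSO and at 0.53 between the compounds, and without DMSO 1 at -0.53 against DMSO. SOX2 lies within the span of SOX2-OT on the same strand, but the exons do not overlap and SOX2-OT had 0 to 6 counts per library.

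The Krüppel-like factors divide the keratinocyte programme, with KLF5 in dividing basal cells and KLF4 in differentiating cells, where mouse skin needs it for the barrier. KLF4 (ENSG00000136826, chromosome 9, 107484852 to 107490482, minus strand) stood at 24.7, 24.4 and 26.6 CPM with YKL-5-124, at 31.4, 30.8 and 34.0 CPM with samuraciclib, and at 32.4, 33.8 and 31.6 CPM in DMSO. The YKL-5-124 libraries were the lowest 3 of 9, and samuraciclib and DMSO overlapped. KLF4 was thus 1.29-fold lower with YKL-5-124 than in DMSO, a log2 fold change of -0.37 ± 0.069 (adjusted p = 0.00022), and -0.02 ± 0.068 with samuraciclib (adjusted p = 0.82, interval -0.16 to 0.12). Between YKL-5-124 and samuraciclib it was -0.35 ± 0.069 (adjusted p = 0.0013, interval -0.49 to -0.20). This is the opposite order of the compounds from that of SOX2, which was lower with samuraciclib.

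KLF5 (ENSG00000102554, chromosome 13, 73054976 to 73077542, plus strand) stood at 106, 112 and 103 CPM with YKL-5-124, at 110.2, 109.6 and 110.7 CPM with samuraciclib, and at 106.4, 106.7 and 110 CPM in DMSO. The 3 groups overlapped throughout. The log2 fold change was -0.01 ± 0.046 with YKL-5-124 (adjusted p = 0.887, interval -0.11 to 0.09) and 0.03 ± 0.046 with samuraciclib (adjusted p = 0.605, interval -0.07 to 0.13), so both intervals lie far inside the fold threshold. Between YKL-5-124 and samuraciclib it was -0.04 ± 0.046 (adjusted p = 0.563, interval -0.14 to 0.06). Its sign against DMSO with YKL-5-124 turned under several settings, and with library size alone the value was 0.12.

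GRHL2 and GRHL3 encode grainyhead-like factors, which keep epithelial junction and barrier genes such as CDH1 open and transcribed. GRHL2 (ENSG00000083307, chromosome 8, 101492432 to 101669726, plus strand) stood at 141, 138 and 133 CPM with YKL-5-124, at 126, 129 and 131 CPM with samuraciclib, and at 96.4, 99.4 and 104 CPM in DMSO. All inhibitor libraries lay above DMSO, and those of YKL-5-124 also above those of samuraciclib. It was 1.37-fold higher with YKL-5-124, a log2 fold change of 0.46 ± 0.046 (adjusted p = 2.1e-07), and 1.29-fold higher with samuraciclib, 0.36 ± 0.046 (adjusted p = 4.6e-06), the smallest adjusted p of any member in both comparisons but under the fold threshold. The threshold was passed with YKL-5-124 when library size alone (0.59) or the upper quartile (0.52) set the scale. The value of YKL-5-124 over samuraciclib was 0.09 ± 0.046 (adjusted p = 0.144, interval -0.0016 to 0.19).

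GRHL3 (ENSG00000158055, chromosome 1, 24319322 to 24364482, plus strand), which acts in epidermal barrier formation and wound closure in mice, had 9, 10 and 12 counts with YKL-5-124, 22, 8 and 8 with samuraciclib, and 10, 6 and 15 in DMSO. One samuraciclib library held the highest count, and the groups overlapped. The log2 fold changes were -0.04 ± 0.46 with YKL-5-124 (interval -1.02 to 0.94) and 0.30 ± 0.45 with samuraciclib (interval -0.65 to 1.24), so a difference below about 2-fold was not detectable at this depth. Without samuraciclib 1 the second value was -0.34. STPG1, a gene on the opposite strand whose span overlaps that of GRHL3 outside their exons, had 130 to 222 counts.

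TFAP2A (ENSG00000137203, chromosome 6, 10393186 to 10419659, minus strand) encodes AP-2α, a factor of surface ectoderm that binds keratin gene promoters. It stood at 83.5, 85.9 and 80.4 CPM with YKL-5-124, at 73.6, 77.4 and 71.4 CPM with samuraciclib, and at 74.7, 72.8 and 85.0 CPM in DMSO. Both inhibitor groups overlapped DMSO, where DMSO 3 was high, but not each other. In each group the highest library was the one low in RN7SL2. The part of that library difference in the result was not tested. The log2 fold change was 0.10 ± 0.060 with YKL-5-124 (adjusted p = 0.172) and -0.07 ± 0.060 with samuraciclib (adjusted p = 0.391). Between YKL-5-124 and samuraciclib it was 0.17 ± 0.060 (adjusted p = 0.0478, interval 0.04 to 0.29). That adjusted p is close to its limit, was 0.0844 with DESeq2, and lay above 0.05, at up to 0.161, when any 1 library other than samuraciclib 2 or DMSO 3 was left out. TFAP2A-AS2, with 35 to 112 counts, and TFAP2A-AS1, with 12 to 50, lie on the opposite strand and share 11.4% and 5.33% of the exon bases of TFAP2A. The strand setting of the counting is not given in the sources used here, so reads of these bases may not be told apart.

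OVOL1 (ENSG00000172818, chromosome 11, 65787022 to 65797219, plus strand), a zinc finger repressor that takes mouse keratinocytes out of proliferation and acts against mesenchymal genes, was the only member called. It stood at 6.35, 6.46 and 7.59 CPM with YKL-5-124, at 6.46, 5.74 and 5.91 CPM with samuraciclib, and at 4.81, 5.06 and 4.48 CPM in DMSO. All inhibitor libraries lay above DMSO, on counts of 122 to 165 with YKL-5-124, 115 to 138 with samuraciclib and 84 to 119 in DMSO. OVOL1 rose 1.43-fold with YKL-5-124 (log2 fold change 0.51 ± 0.13, adjusted p = 0.0026, interval 0.25 to 0.78). The call sits on the fold threshold and was lost at 0.43 without YKL-5-124 3, at 0.46 without DMSO 3, at 0.498 without the 3 libraries low in RN7SL2, and at 0.499 with DESeq2. With samuraciclib the log2 fold change was 0.34 ± 0.13 (adjusted p = 0.0391), and that adjusted p was 0.134 without samuraciclib 1, 0.0602 without samuraciclib 3, 0.0759 without DMSO 1, 0.137 without DMSO 3 and 0.132 with DESeq2. Set against samuraciclib, YKL-5-124 gave 0.17 ± 0.12 (adjusted p = 0.343, interval -0.09 to 0.43). Antisense models at the locus, OVOL1-AS1 and AP001266.1, had 0 to 7 and 0 counts. AP001266.1 shares 27.3% of the exon bases of OVOL1. With the strand setting not given, reads of these bases may not be told apart, and its counts do not settle this.

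PITX1 (ENSG00000069011, chromosome 5, 135027735 to 135034813, minus strand) encodes a homeobox factor of the oral ectoderm and hindlimb. It stood at 49.5, 41.7 and 49.96 CPM with YKL-5-124, at 51.6, 43.0 and 55.4 CPM with samuraciclib, and at 45.4, 46.5 and 41.2 CPM in DMSO. The lowest library of each group was the one low in RN7SL2, and the part of that library difference in the result was not tested. The groups overlapped, with log2 fold changes of 0.08 ± 0.087 with YKL-5-124 (adjusted p = 0.448), 0.17 ± 0.087 with samuraciclib (adjusted p = 0.114) and -0.09 ± 0.086 between YKL-5-124 and samuraciclib (adjusted p = 0.49). In the 6 other libraries the value with samuraciclib was 0.22 ± 0.071 (adjusted p = 0.0155), still under the fold threshold. AC008406.3, antisense to PITX1 over 8.51% of its exon bases, had 0 to 3 counts.

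**Figure D3:**
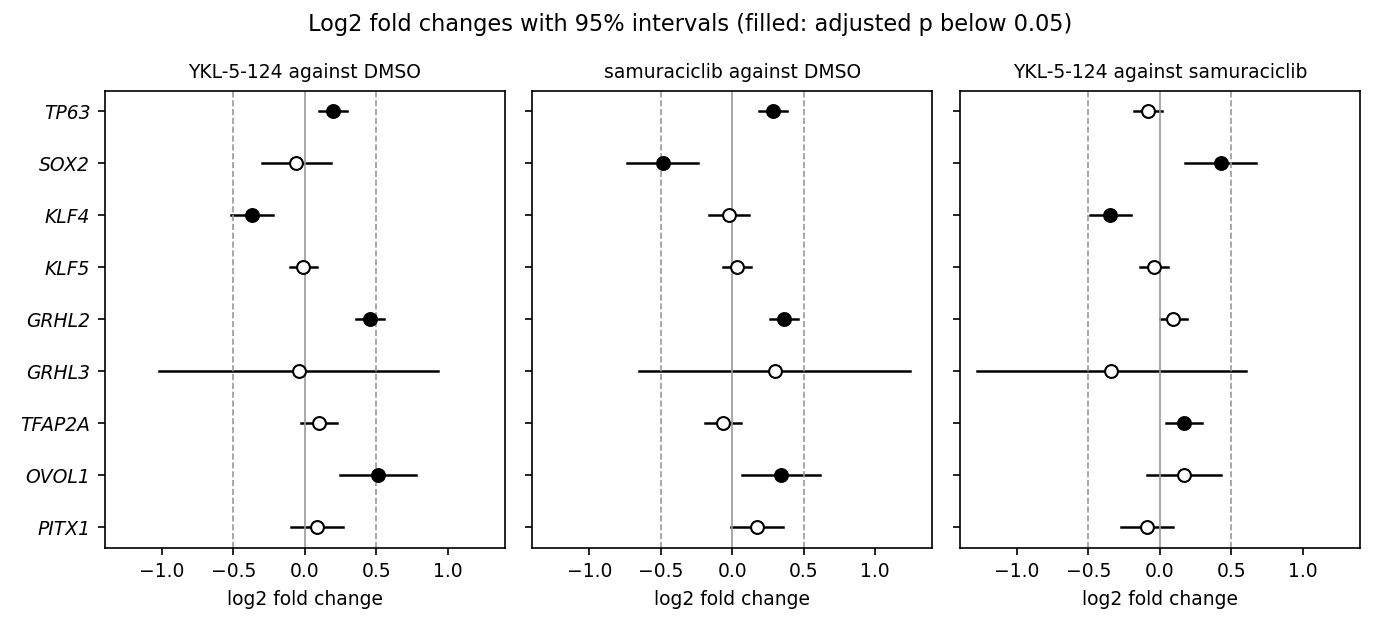
Log2 fold change (point) and 95% interval (line) of each lineage factor for YKL-5-124 against DMSO, samuraciclib against DMSO and YKL-5-124 against samuraciclib, with dashed lines at the fold threshold and filled points where the adjusted p was below 0.05. OVOL1 with YKL-5-124 is the only filled point past a dashed line, at 0.51, and the GRHL3 intervals are the widest.

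The genes whose log2 CPM followed each member most closely over the 9 libraries, among 8911 protein-coding genes of at least 10 CPM, are given as a description of shared libraries and groups. For TP63 they were SGPL1 (r = 0.986), ARHGEF5 and MBOAT2, and for GRHL2 ABHD4 (r = 0.991), BIN3 and EIF4EBP2. KLF4 was followed by PYGL (r = 0.987), the simple-epithelium keratin gene KRT18 (r = 0.983) and U2AF2, and SOX2 by MTFR2 (r = 0.959), TRAPPC3 and MRPL40. OVOL1 was followed by CLTB (r = 0.969) and OSTF1, and TFAP2A by FBXO28 (r = 0.957), TSPYL4 and CREB1. KLF5 was followed by B4GALT6 (r = 0.943), TFCP2, a gene of the wider grainyhead family, and DCAF12, and PITX1 by ARHGAP23 (r = 0.963), TSPO and OGFR. The closest to GRHL3 were DYRK1A (r = 0.926), LYST and ASAP2, where the low counts make r uncertain.

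Related genes were counted in each direction. Over all genes, 11.9% rose and 9.93% fell with YKL-5-124, 8.17% rose and 9.55% fell with samuraciclib, and 4.46% were higher and 2.46% lower with YKL-5-124 than with samuraciclib. Of 33 paralogs of the members, 22 were tested. With YKL-5-124 2 of these rose and 3 fell, with samuraciclib 2 rose and 2 fell, and 1 was lower with YKL-5-124 than with samuraciclib. SOX9, an HMG-box factor of hair follicle and stem cells, fell to 54.9 ± 5.00 CPM with YKL-5-124 and 61.9 ± 2.58 CPM with samuraciclib, against 89.9 ± 9.46 CPM in DMSO (SD, n = 3 each). The log2 fold changes were -0.71 ± 0.074 (adjusted p = 2.7e-07) and -0.54 ± 0.073 (adjusted p = 8.6e-06). KLF10, an early target of TGF-β, fell with YKL-5-124 to 67.2 ± 3.14 CPM, against 102 ± 1.58 CPM in DMSO (-0.60 ± 0.051, and -0.33 ± 0.051 with samuraciclib). KLF2 fell with both compounds to 2.92 ± 0.524 CPM with YKL-5-124 and 2.94 ± 0.211 CPM with samuraciclib, against 7.24 ± 0.716 CPM in DMSO (-1.32 ± 0.16 and -1.29 ± 0.16). KLF15 and KLF14 rose with both from low counts. KLF15 had 11 to 14 counts with YKL-5-124 and 9 to 11 with samuraciclib, against 1 to 4 in DMSO, and KLF14 9 to 20 and 9 to 13, against 4 to 5. KLF12 was lower with YKL-5-124, at 6.76 ± 0.629 CPM, than with samuraciclib, at 10.0 ± 0.878 CPM (-0.57 ± 0.12, adjusted p = 0.0019).

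Among 25 tested of 29 other epithelial and keratinocyte transcription factors, 4 rose and none fell with YKL-5-124, with a list median of 0.30 against 0.01 for all genes, and 2 rose and 1 fell with samuraciclib. DLX3, a homeobox factor of differentiating epidermis, rose with YKL-5-124 to 12.6 ± 0.292 CPM, against 8.31 ± 0.575 CPM in DMSO (0.61 ± 0.098, and 0.35 ± 0.099 with samuraciclib). MSX2 rose to 5.09 ± 0.0296 CPM with YKL-5-124 and 4.58 ± 0.303 CPM with samuraciclib, against 3.07 ± 0.365 CPM in DMSO (0.73 ± 0.14 and 0.58 ± 0.15). SIM2 rose by 0.67 ± 0.17 with YKL-5-124 and 0.78 ± 0.17 with samuraciclib. IRX2 fell with samuraciclib, to 73.5 ± 8.34 CPM against 117 ± 5.67 CPM in DMSO (-0.68 ± 0.089, and -0.42 ± 0.088 with YKL-5-124). CEBPA, a factor of keratinocyte cell cycle exit, was called higher with YKL-5-124 against DMSO (0.94 ± 0.26) and against samuraciclib (0.91 ± 0.26), although the libraries overlapped. The second call was lost without YKL-5-124 1, YKL-5-124 3 or samuraciclib 1. In the 6 libraries not low in RN7SL2, 7 of these factors rose with YKL-5-124. Over all genes 1691 rose there, against 1911 with all libraries. Without DMSO 3, 4 of these factors rose with samuraciclib, and without YKL-5-124 3, 1 of them fell with YKL-5-124.

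Of 30 p63-linked basal keratinocyte genes, all tested, 4 rose and 3 fell with YKL-5-124, and 6 rose and 3 fell with samuraciclib, with medians of -0.02 and 0.12. KRT15, a keratin of basal cells, fell to 47.6 ± 3.59 CPM with YKL-5-124 and 48.4 ± 3.33 CPM with samuraciclib, against 86.4 ± 3.13 CPM in DMSO (-0.86 ± 0.064 and -0.84 ± 0.064). COL17A1, the hemidesmosomal collagen, fell to 231 ± 4.49 CPM with YKL-5-124 and 217 ± 8.94 CPM with samuraciclib, against 344 ± 7.40 CPM in DMSO (-0.58 ± 0.046 and -0.67 ± 0.046). KRT17, a keratin of activated and hyperproliferative epidermis, rose to 2693 ± 108 CPM with YKL-5-124 and 2691 ± 88.6 CPM with samuraciclib, against 1778 ± 30.6 CPM in DMSO (0.60 ± 0.045 each). The Notch ligand JAG1 rose with YKL-5-124 (0.71 ± 0.060) and with samuraciclib (0.71 ± 0.060). CDH3, P-cadherin of basal cells, rose with samuraciclib (0.62 ± 0.046) and stood at 0.47 ± 0.046 with YKL-5-124, under the fold threshold. KRT14 was lower with YKL-5-124, at 19.2 ± 2.10 CPM, than with samuraciclib, at 32.8 ± 3.11 CPM (-0.77 ± 0.089, adjusted p = 9.5e-06), the only gene of the list called between the compounds.

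Of 29 grainyhead-linked barrier and junction genes, all tested, 5 rose and 1 fell with YKL-5-124, and 2 rose and 1 fell with samuraciclib, with medians of 0.04 and 0.09. CDH1, which encodes E-cadherin, rose to 377 ± 7.13 CPM with YKL-5-124 and 330.0 ± 5.35 CPM with samuraciclib, against 189 ± 8.74 CPM in DMSO (1.00 ± 0.047, adjusted p = 1.3e-11, and 0.80 ± 0.047, adjusted p = 4.4e-10). ST14, the membrane protease matriptase, rose by 0.56 ± 0.058 with YKL-5-124 and 0.52 ± 0.058 with samuraciclib. CLDN4, a tight junction claudin, rose with YKL-5-124 to 119 ± 6.81 CPM, against 74.3 ± 3.88 CPM in DMSO (0.67 ± 0.057), and so did the polarity gene LLGL2 (0.66 ± 0.067). With samuraciclib these stood at 0.24 ± 0.058 for CLDN4 and 0.38 ± 0.067 for LLGL2. The desmosomal plaque gene PKP3 fell with samuraciclib (-0.52 ± 0.060) and stood at -0.41 ± 0.059 with YKL-5-124. Between YKL-5-124 and samuraciclib, TJP3 was called higher (0.77 ± 0.26, libraries overlapping) and the transglutaminase gene TGM1 lower (-0.71 ± 0.24). Neither of these held without the 3 libraries low in RN7SL2. The TJP3 call was also lost without YKL-5-124 2, YKL-5-124 3, samuraciclib 1 or samuraciclib 2, and the TGM1 call without YKL-5-124 2, samuraciclib 2 or samuraciclib 3. Without DMSO 2, 2 genes fell with YKL-5-124. In the comparison of samuraciclib with DMSO, 1 gene rose without samuraciclib 1 or without samuraciclib 3, none fell without samuraciclib 2, and 2 fell without samuraciclib 3 or DMSO 3.

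Of 45 differentiation and cornified envelope genes only 20 were tested, and genes of the late programme such as IVL, LOR, KRT1 and the SPRR genes did not pass the filter. With YKL-5-124 6 rose and 2 fell, and with samuraciclib 3 rose and 3 fell, with medians of 0.11 and 0.00. The kallikrein KLK10 fell to 9.01 ± 0.276 CPM with YKL-5-124 and 10.7 ± 1.03 CPM with samuraciclib, against 24.3 ± 1.25 CPM in DMSO (-1.43 ± 0.094 and -1.19 ± 0.092), and so did KLK5, whose protease acts in desquamation (-0.76 ± 0.050 and -0.65 ± 0.050). PPL, which encodes the cornified envelope protein periplakin, rose with YKL-5-124 to 622 ± 23.2 CPM, against 399.6 ± 8.55 CPM in DMSO (0.64 ± 0.049, and 0.48 ± 0.049 with samuraciclib). KRT80 rose with YKL-5-124 to 433 ± 11.7 CPM, against 301 ± 2.66 CPM with samuraciclib and 291 ± 16.2 CPM in DMSO (0.52 ± 0.049 over samuraciclib and 0.57 ± 0.049 over DMSO). The desmocollin DSC2 rose by 0.63 ± 0.070 with YKL-5-124 and 0.75 ± 0.070 with samuraciclib. KRT16 rose by 0.86 ± 0.14 with samuraciclib and stood at 0.30 ± 0.15 with YKL-5-124. Between YKL-5-124 and samuraciclib the desmoglein DSG1 was higher, at 1.49 ± 0.269 against 0.314 ± 0.128 CPM (2.22 ± 0.36), and KRT16 lower (-0.56 ± 0.14). The KRT16 call was lost without YKL-5-124 2, without samuraciclib 3 and without the 3 libraries low in RN7SL2, and 2 genes were lower without YKL-5-124 3. Without DMSO 2, 4 genes of the list fell with YKL-5-124.

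Of 20 mesenchymal genes, listed as a programme set against OVO-like and grainyhead-like factors, 17 were tested. Control of single genes of the list by these factors was not tested. With YKL-5-124 2 rose and 5 fell, with samuraciclib 4 rose and 1 fell, and 3 were lower with YKL-5-124 than with samuraciclib. The medians were -0.37, -0.19 and -0.16. CD44 fell with YKL-5-124 to 265 ± 9.30 CPM, against 466 ± 2.02 CPM in DMSO (-0.81 ± 0.047), and SNAI2, a zinc finger factor also active in basal keratinocytes, to 54.5 ± 3.99 CPM, against 99.1 ± 8.34 CPM in DMSO (-0.86 ± 0.068). With samuraciclib CD44 stood at -0.45 ± 0.047 and SNAI2 at -0.49 ± 0.067, under the fold threshold. FN1, the fibronectin gene, rose to 86.4 ± 3.57 CPM with YKL-5-124 and 94.6 ± 1.65 CPM with samuraciclib, against 53.4 ± 2.17 CPM in DMSO (0.69 ± 0.052 and 0.82 ± 0.052). TGFB2 rose by 1.19 ± 0.11 with YKL-5-124 and 1.22 ± 0.11 with samuraciclib, and TGFBR2 and ITGA5 rose with samuraciclib by 0.61 ± 0.053 and 0.63 ± 0.060. With YKL-5-124 TGFBR2 stood at 0.49 ± 0.053 and ITGA5 at 0.08 ± 0.061. CDH2, N-cadherin, was lower with YKL-5-124 than with samuraciclib at 31.0 ± 1.39 against 47.8 ± 3.50 CPM (-0.62 ± 0.066), as were ITGA5 (-0.55 ± 0.060) and MMP2 (-0.76 ± 0.16). ZEB1, named after its values were seen, was the gene that fell with samuraciclib, at 0.488 ± 0.312 CPM against 1.11 ± 0.336 CPM in DMSO. With samuraciclib 3 genes fell without DMSO 2, 2 without samuraciclib 1 and none without the 3 libraries low in RN7SL2.

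**Figure D4:**
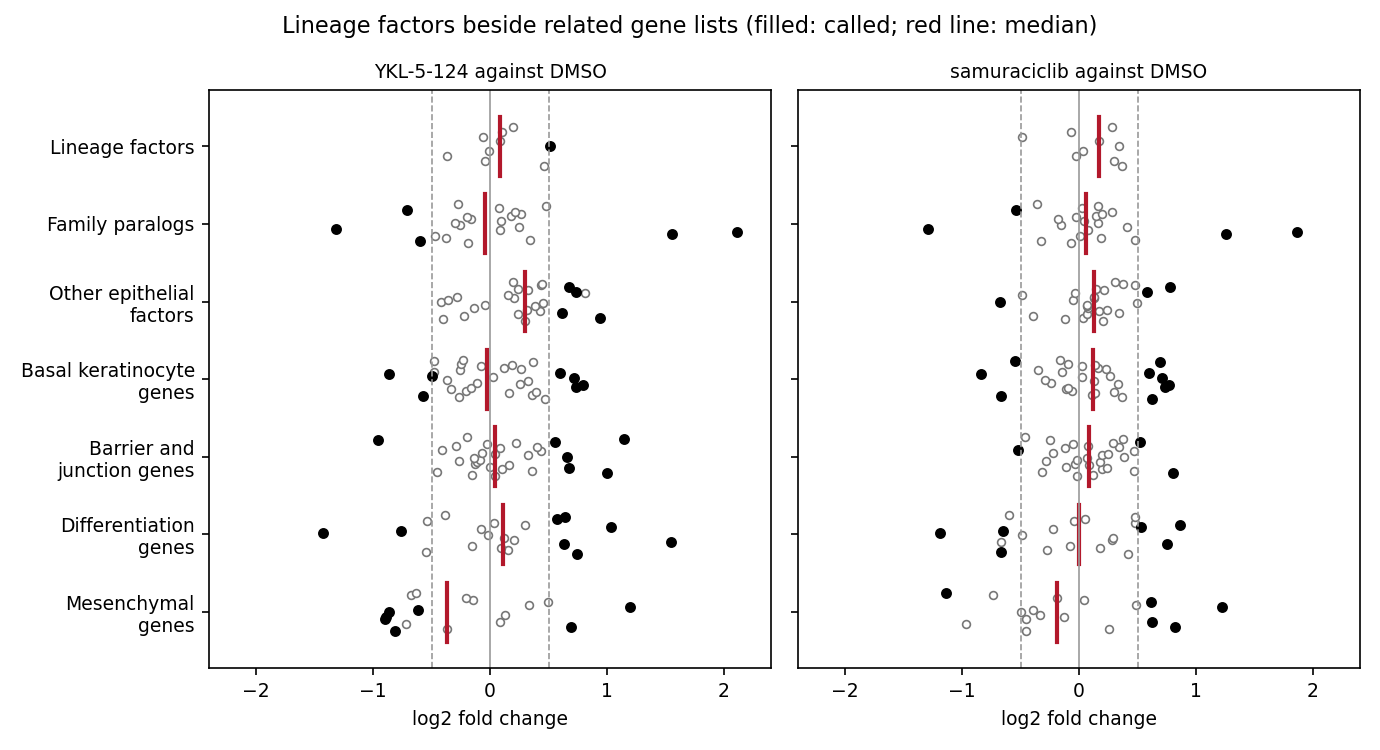
Log2 fold changes of single genes (points, filled where called) and the list median (red line) for the lineage factors and 6 related lists, with YKL-5-124 against DMSO on the left and samuraciclib against DMSO on the right. The median of the other epithelial factors with YKL-5-124 is 0.30 and that of the mesenchymal genes -0.37, while the lineage factors have medians of 0.08 and 0.17.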

How the data were processed

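Poly(A)-selected RNA of 9 FaDu cultures was sequenced in read pairs, and the authors aligned it to GRCh38 with HISAT2 and counted pairs per gene with featureCounts 2.0.6. The deposited counts are whole numbers with no normalization or filter. The annotation release and strand setting are not given in the sources used here. Genes were filtered with filterByExpr and scaled by TMM in edgeR 4.0.16 (R 4.3.3), and all 9 libraries entered 1 quasi-likelihood fit (glmQLFit, glmQLFTest, two-sided) without covariates, with Benjamini-Hochberg adjustment over 16065 genes. The SE is the log2 fold change over the root of F. P-values measure the spread between cultures of 1 line. The fit was tested on simulated data. Members and lists were chosen with earlier results of these data known, so lists are described by counts and medians only. Beside the members, the text names by rule up to 4 called genes of each list and comparison with the smallest adjusted p, overlapping gene models and the 3 genes most alike by Pearson r of log2 CPM, of which 1 is not reported here. DESeq2 1.42.0, other scalings, filters and thresholds, a replicate block and left-out libraries were tried as alternatives. Promoter windows came from a RefSeq table on GRCh38.p14, and windows of 7 members were used. Member windows on chromosome 8, which carries GRHL2, were left out, and none was found for OVOL1.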

Additional observations from a re-analysis of the deposited data

Results flagged for a closer look

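For 3 members, SOX2, KLF4 and TFAP2A, the effects differed between the compounds, by the direct comparison of YKL-5-124 with samuraciclib at the same dose (edgeR's quasi-likelihood test, adjusted p below 0.05 at any fold change, which 24.9% of all genes passed). The log2 fold change of YKL-5-124 over samuraciclib was 0.427 for SOX2 (adjusted p = 0.0134), -0.347 for KLF4 (adjusted p = 0.0013) and 0.168 for TFAP2A (adjusted p = 0.0478). For SOX2 and KLF4 all 3 libraries of 1 group lay beyond all 3 of the other, as they did for TFAP2A, whose adjusted p is above 0.05 with DESeq2 (0.0844) and when any 1 library other than samuraciclib 2 or DMSO 3 is left out (up to 0.161). Each compound was given at 1 dose, so a difference in kind and a difference in strength of CDK7 inhibition cannot be told apart.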

How the results depend on the processing

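With YKL-5-124 against DMSO the number of members called, 1, was 0 with no filter, with DESeq2, with glmTreat and without the 3 libraries low in RN7SL2, 2 with library size alone or the upper quartile as scale, and 4 by adjusted p alone. By adjusted p alone it was 4 with samuraciclib against DMSO and 3 between the compounds. Leaving out 1 library at a time gave 0 to 1 in each of the 3 comparisons. Directions turned only for members that were not called. With YKL-5-124 against DMSO, SOX2 was 0.070 with library size alone, and KLF5 was 0.028 with a mean of 50 counts, 0.12 with library size alone, 0.049 with the upper quartile, 0.0010 with only the 2 groups fitted and 0.010 with protein-coding genes only, and -0.044 to 0.019 with 1 library left out. GRHL3 was 0.087 with library size alone, 0.016 with the upper quartile, 0.25 without the 3 libraries low in RN7SL2 and -0.25 to 0.11 with 1 library left out. With samuraciclib against DMSO, KLF4 was 0.038 with library size alone, 0.022 with the upper quartile and -0.062 to 0.0062 with 1 library left out, GRHL3 -0.34 to 0.57 and TFAP2A -0.11 to 0.0075. Between the compounds KLF5 was 0.028 with library size alone and GRHL3 -0.61 to 0.30 with 1 library left out. The cause was not tested. Over all alternatives, 548 fold changes of single members kept direction and call, 22 turned and 6 were no longer called. Another 15 were newly called, 10 of them where the fold threshold was dropped and the value itself did not move. Only OVOL1 with YKL-5-124 was called at first, so keeping the call mostly meant staying uncalled. Where adjusted p alone or below 0.01 set the call, the fit was unchanged, so no direction could turn there. The 6 to 22 counts of GRHL3 limit what can be seen of it.

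Library size alone moved the median of all genes to 0.14 with YKL-5-124, 0.06 with samuraciclib and 0.08 between the compounds, and rises made up 72.7%, 57.1% and 79.5% of the calls, against 1911 of 3506, 1312 of 2847 and 717 of 1112 with TMM. By adjusted p alone 7919, 7087 and 4003 genes were called, by glmTreat 1458, 982 and 71, and at an adjusted p below 0.01 between the compounds 696. Without gene length TP63 ranked first in all groups. Libraries of different groups were correlated on log2 CPM after the mean of each gene within its group was subtracted. These correlations thus describe deviations within groups, not whole profiles. Same-numbered libraries correlated at -0.0877 to 0.228 on this scale, above 0.1 in 2 of 9 pairs. In both other groups at once, 3 of 9 libraries correlated best with their own number. Between the inhibitor groups each library correlated best with its own number (0.0679, 0.228 and 0.145). DMSO 3 instead correlated most with YKL-5-124 2 (0.185) and samuraciclib 2 (0.182), which like it were low in RN7SL2. For number 1 the margin was small, with 0.0189 for YKL-5-124 1 with samuraciclib 3 and 0.0128 for YKL-5-124 3 with samuraciclib 1. The pair at 0.228, YKL-5-124 2 with samuraciclib 2, was the pair low in RN7SL2. With DMSO the numbers did not match throughout. Whether the numbers mark paired cultures was not tested. With the replicate block 1, 0 and 0 members and 3494, 2825 and 1101 genes were called, and no call of a member changed. The block follows the numbers, so it does not place DMSO 3 with YKL-5-124 2 and samuraciclib 2.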
